A study of Homo sapiens with 18 samples.

Results

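Ribosome footprints were set against RNA in undifferentiated human pluripotent stem cells (hPSC), to ask which genes held more or fewer footprints than their RNA would give at the average ratio. The comparison rests on 4 of the 18 libraries of the series: 2 of total ribosome footprints and 2 of RNA-seq, chosen by their labels. It covers protein-coding genes, 19196 of the 57808 genes of the table, of which 14686 had enough counts to be tested. The cells were MEL1, an established human embryonic stem cell line with a GFP reporter in 1 copy of the insulin gene, cultured on Matrigel in mTeSR+ medium, and per the labels both the footprint and the RNA libraries came from the RPL22-FLAG genotype. How the tag was brought into hPSC, and whether they were 1 clone, is not given in the sources used here. For total footprints, lysates made without cycloheximide were digested with RNase I, and for RNA-seq ribosomal RNA was removed with RNase H. FLAG footprints (IP-Ribo, pulled down through the tag on RPL22) of the same cells and total footprints and RNA of definitive endoderm (DE, made from the same line) are used for reference, again with 2 libraries in each group. Nothing in the labels says that the libraries within a group were grown apart, so p-values measure the spread between these libraries, which may be technical.

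A translating ribosome shields a short stretch of mRNA from nuclease, so that counting the protected fragments of a gene estimates how many ribosomes its mRNAs carry. The ratio of footprints to RNA is used as a measure of ribosome load per mRNA. mRNAs for ribosomal proteins and several translation factors begin with a terminal oligopyrimidine (TOP) tract, a C followed by pyrimidines, through which mTOR signalling controls them. Other mRNAs carry upstream reading frames, iron-responsive elements or frameshift sites through which their translation is regulated. Pluripotent stem cells divide rapidly, rely on glycolysis, and keep differentiation in check with POU5F1, SOX2 and NANOG.

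The footprint libraries held 22.29 and 26.40 M counts and the RNA libraries 79.77 and 85.59 M. Protein-coding genes took 80.4% and 81.9% of the counts in footprints, against 89.6% and 89.3% in RNA. Libraries of a group ranked the genes alike, with a Spearman correlation of 0.991 for footprints and 0.998 for RNA. Of 44 listed pluripotency genes, 42 had at least 1 CPM (counts per M of protein-coding counts, with library sizes scaled by TMM) in every library, and their summed level was 12505 and 12108 CPM in footprints, against 11027 and 11753 CPM in RNA. Of 16 genes of beta and other islet cells, 12 stayed under 1 CPM in every library and 4 were at 0 throughout. Of 20 definitive endoderm genes 7 stayed under 1 CPM in every library, and their summed level was 61.4 and 69.1 CPM in footprints, against 92.4 and 109 CPM in RNA. Listed mesoderm genes summed to 20.04 and 24.2 CPM in footprints, against 25.7 and 29.0 CPM in RNA. Listed ectoderm genes summed to 943 and 854 CPM in footprints, against 462 and 472 CPM in RNA, of which NES, a filament protein of neural progenitors, made up 289 CPM in the RNA mean. Listed endothelial, blood and fibroblast genes summed to 25.8 and 21.3 CPM in footprints, against 26.1 and 24.2 CPM in RNA. As shares of coding counts, which TMM does not scale, pluripotency genes took 0.848% and 0.776% in footprints, against 1.70% and 1.76% in RNA. By the same measure ectoderm genes took 0.0639% and 0.0547% in footprints, against 0.0711% and 0.0707% in RNA. The direction of both sums therefore depends on the scale. In such bulk libraries, fewer cells of a type and less RNA per cell cannot be told apart.

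Footprints were spread over fewer genes than RNA. The 100 largest protein-coding genes took 37.9% and 39.3% of the coding counts in footprints, against 18.9% and 19.4% in RNA. In footprints they included TMC5, with 0.912% and 1.20%, against 0.0004% and 0.00043% in RNA, whose span holds a copy of the U4 small nuclear RNA. WDR74 held 0.743% and 0.621% of footprints, against 0.00643% and 0.00693% of RNA. The part of small RNA fragments in the concentration was not tested. EEF1A1, the elongation factor that brings aminoacyl-tRNA to the ribosome, was the largest gene in both, with 2.38% and 3.04% of coding counts in footprints, against 1.38% and 1.41% in RNA. NPM1, a nucleolar histone chaperone, held 1.68% and 2.28% of coding footprints, against 0.204% and 0.210% of coding RNA counts. TUBA1B, an alpha-tubulin, held 1.24% and 1.02% of footprints, against 0.220% and 0.206% of RNA. LIN28A, the RNA-binding protein that blocks let-7 maturation, held 0.0455% and 0.0382% of coding footprints, against 0.365% and 0.390% of coding RNA. ACTB, the beta-actin, held 0.635% and 0.546% of footprints, against 0.586% and 0.580% of RNA, so that the shares overlapped. On the TMM scale of the tests below, its log2 ratio was 1.22 ± 0.10 (SE, edgeR adjusted p = 1.7e-05). With protein-coding totals alone that ratio was 0.02. GAPDH, of glycolysis, held 1.40% and 1.13% of footprints, against 0.428% and 0.445% of RNA.

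Over the 14686 genes tested, the log2 ratio of footprints over RNA had a median of -0.21, with quartiles of -1.27 and 0.80, and 90% of genes lay between -3.17 and 2.08. With edgeR's quasi-likelihood F test and Benjamini-Hochberg adjustment, 11036 genes (75.1%) differed at an adjusted p under 0.05, of which 5003 (34.1%) were higher in footprints and 6033 (41.1%) lower. Tested against a log2 ratio of 1 in either direction, 2279 (15.5%) were higher and 3098 (21.1%) lower. The libraries of the groups did not overlap for 88.3% of the genes. A lack of overlap stated below for single genes is therefore what most genes show. The zero point of the scale follows from TMM, which puts the middle of the genes near 0. With protein-coding totals alone the median of all genes was -1.41, and 1605 genes were higher and 10907 lower. The direction of a gene near the middle is therefore a matter of scale, and the main lists are given with a percentile, the rank of the list's median among the genes tested, which does not depend on the zero point. The counts of members higher and lower with protein-coding totals alone stand in brackets. They are to be read beside the 1605 higher and 10907 lower of all 14686 genes on that scale. Those of the main test are to be read beside the 34.1% higher and 41.1% lower of all genes. Of the 8 counts of 0 that edgeR gave for a list in 1 direction, DESeq2 also gave 0 for all 8, and at an unadjusted p under 0.05 they were 0 except for 1 lower proteasome gene. Some of these zeros depend on the setting. With a filter of 1 CPM and 10 counts in every library, 2 proteasome genes and 1 aminoacyl-tRNA synthetase were lower. With DESeq2's size factors in edgeR, 1 mRNA with an iron-responsive element and 1 definitive endoderm gene were higher. DESeq2 also put the median of all genes at -0.075, above -0.21, which makes 0 lower members easier to reach. The ratio is one of counts per gene and was not corrected for coding length: RNA reads cover untranslated regions too. How far the share of untranslated sequence orders the genes was not tested.

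**Figure D1:**
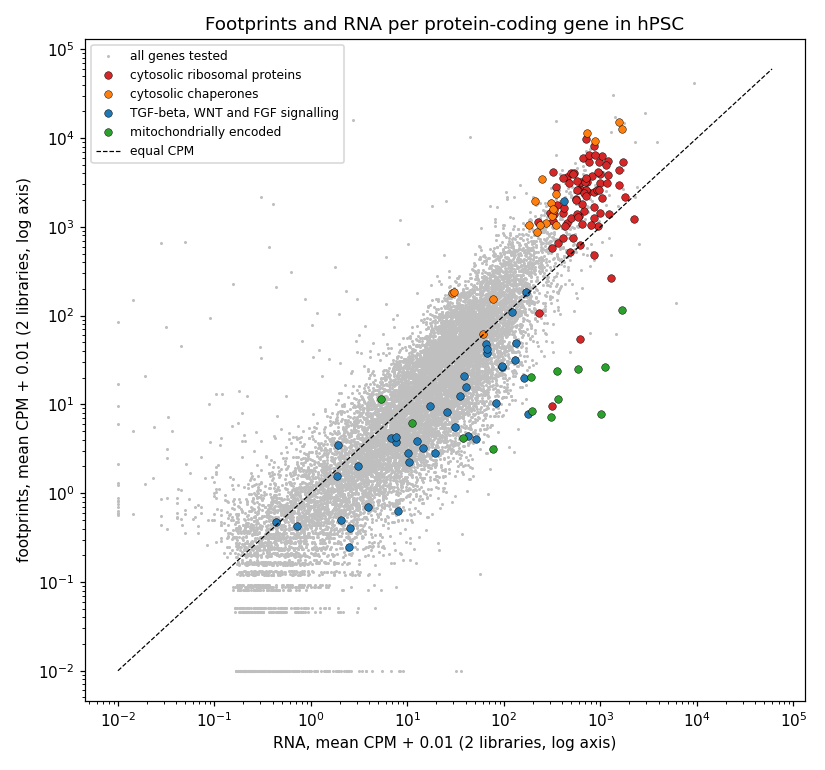
Mean CPM of footprints (vertical) against RNA (horizontal) for each protein-coding gene tested in hPSC, each the mean of 2 libraries, on log axes. Most ribosomal protein and chaperone genes lie above the line of equal CPM, and most mitochondrially encoded and signalling genes below it.

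**Figure D2:**
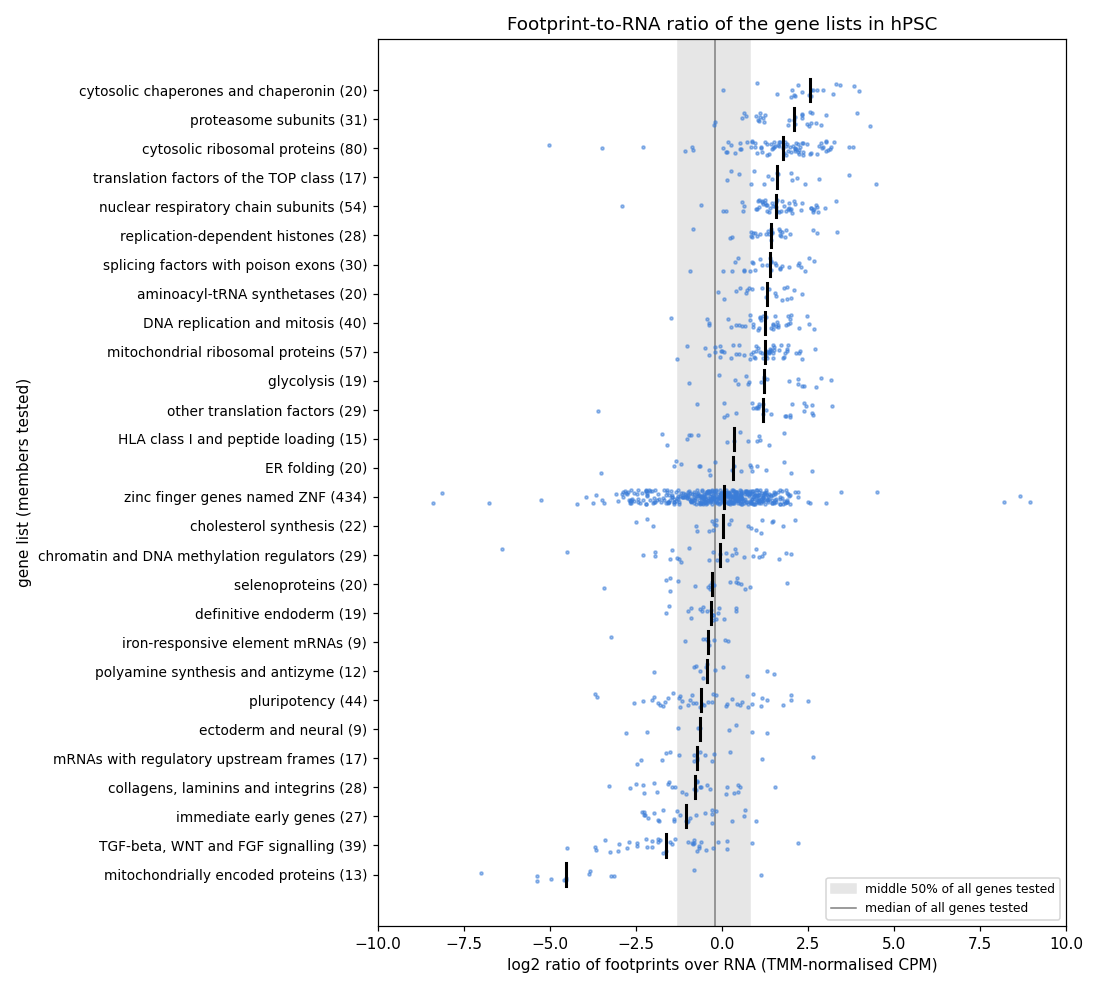
Log2 ratio of footprints over RNA (horizontal) for each member tested of the lists with at least 9 members tested, with the list's median as a bar, ordered by that median. Chaperones have the highest median, at 2.55, and mitochondrially encoded mRNAs the lowest, at -4.55, beside a median of -0.21 for all genes tested.

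Cytosolic ribosomal proteins, the protein part of the ribosome itself, ranked near the top. Of 80 tested, 70 were higher in footprints and 6 lower, against 34.1% and 41.1% of all genes. Their median log2 ratio was 1.78, at percentile 92.03, and with protein-coding totals alone it was 0.57 (with totals alone, 48 higher and 17 lower). Together they took 14.2% and 13.97% of coding counts in footprints, against 8.87% and 9.20% in RNA. RPL22, the 60S protein that carries the tag, had 4309 and 3790 CPM in the footprint libraries, against 482 and 518 CPM in the RNA libraries, a log2 ratio of 3.02 ± 0.12 (SE, adjusted p = 5.4e-07). Every footprint library lay above every RNA library, and counts per gene do not tell tagged from untagged RPL22. RPS24, a 40S protein mutated in Diamond-Blackfan anaemia, had 8978 and 10786 CPM in footprints, against 677 and 756 CPM in RNA, and its log2 ratio of 3.79 ± 0.14 was the highest of the list. RPL34 and RPL7, both of the 60S subunit, followed with 3.68 and 3.24.

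The first bases of these transcripts are shown because the TOP class is defined by them. The windows below are from RefSeq (GRCh38.p14) and run from 10 bases before the annotated first base of the transcript to 20 bases from it, and capitals mark the pyrimidine run where that first base is a C followed by at least 4 pyrimidines. They were chosen as genes named for their ratio, the first 7 with the run and the last 4 without it.
RPS24: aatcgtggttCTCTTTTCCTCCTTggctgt
RPL34: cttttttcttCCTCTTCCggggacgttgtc
RPL22: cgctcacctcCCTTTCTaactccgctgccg
RPL41: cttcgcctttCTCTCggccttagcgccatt
NPM1: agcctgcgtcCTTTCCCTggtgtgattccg
EEF1A1: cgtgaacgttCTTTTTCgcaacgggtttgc
EEF2: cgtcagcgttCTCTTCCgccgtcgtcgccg
EEF1B2: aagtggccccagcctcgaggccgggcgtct
PSMC1: gggccgcagtggtggaggaacttccggcag
HSPD1: gagggcggtcgccccgacgcgcaccgcgat
FZD5: gcggggcgggagagggcagccagcctgcgg
These windows lie at chr10:78033853-78033882 (plus strand) for RPS24, chr4:108620566-108620595 (plus) for RPL34, chr1:6199576-6199605 (minus) for RPL22 and chr12:56116623-56116652 (plus) for RPL41. Those of NPM1, EEF1A1, EEF2 and EEF1B2 lie at chr5:171387839-171387868 (plus), chr6:73521013-73521042 (minus), chr19:3985444-3985473 (minus) and chr2:206159599-206159628 (plus). Those of PSMC1, HSPD1 and FZD5 lie at chr14:90256543-90256572 (plus), chr2:197500255-197500284 (minus) and chr2:207769887-207769916 (minus).

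The run, searched on the transcript's strand at the annotated start only, was found in 44 of 64 ribosomal protein genes with a start in the table (68.8%) and in 9 of 11 other translation genes listed as TOP mRNAs. It was present in 619 of 11861 genes tested that had a start (5.22%), and in 1104 of 27305 starts of the whole table (4.04%). Among ribosomal protein genes, the median log2 ratio was 1.46 for those with the run and 2.00 for those without. Outside both lists the medians were -0.15 for 566 genes with it and -0.17 for those without. RPL41 and RPS24 both carry the run, and their log2 ratios were -2.30 (0.15 with processed copies added) and 3.79. An annotated start may not be the start these cells use.

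Ribosomal protein genes have many near-identical processed copies, which estimated counts can split. The 1600 copies found by name took 6.42% and 6.36% of the family's counts in footprints, against 0.846% and 0.843% in RNA. RPL36A, of the 60S subunit, had 7.91 and 11.5 CPM in footprints, against 306 and 327 CPM in RNA, a log2 ratio of -5.02 ± 0.16, while RPL36A-HNRNPH2, a readthrough gene that holds the same exons, had 2327 and 1998 CPM in footprints, against 0.355 and 0.227 CPM in RNA. With copies and readthrough genes added to their parents, a setting added after the data were seen, RPL36A turned to 2.84 and RPL41 to 0.15. RPL21, with 51.6 and 57.7 CPM in footprints, against 596 and 642 CPM in RNA, had a log2 ratio of -3.50, and 27.2% and 33.5% of its family's counts lay on copies in footprints, against 0.196% and 0.173% in RNA. With copies added RPL21 was still lower, at -2.98. The direction of RPL36A and RPL41 is therefore uncertain. The list as a whole changed little on adding the copies, to 72 higher and 3 lower. Many ribosomal protein genes also hold a small nucleolar RNA in an intron. Among the 45 that hold no small RNA gene, 40 were higher and 3 lower, with a median of 1.88.

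Of 17 other translation genes of the TOP class, 15 were higher in footprints and 0 lower, with a median log2 ratio of 1.58 at percentile 89.7 (with totals alone, 10 higher and 5 lower). NPM1 had 24845 and 35552 CPM in the footprint libraries, against 1325 and 1403 CPM in the RNA libraries, a log2 ratio of 4.47 ± 0.19 (SE, adjusted p = 7.1e-07). Both footprint libraries lay far above both RNA libraries. EEF1B2, the exchange factor that reloads EEF1A1 with GTP, had a log2 ratio of 3.69 ± 0.14, and NACA, a chaperone of nascent chains at the ribosome, of 2.82 ± 0.11. The span of EEF1B2 holds the small RNA genes SNORD51 and SNORA41, whose part in the count was not tested. Such genes are not marked for every gene named here. EEF1A1 itself had 35129 and 47485 CPM in footprints, against 9001 and 9453 CPM in RNA, a log2 ratio of 2.16 ± 0.16, and its processed copies took a further 36.5% and 14.2% of the family's footprints, against 0.151% and 0.199% of its RNA. EEF2, which moves the ribosome by 1 codon, did not pass the test, with 2935 and 2694 CPM in footprints, against 2304 and 2445 CPM in RNA and an edgeR adjusted p of 0.0566 (0.0489 with copies added to their parents). Nor did PABPC1, the poly(A)-binding protein, with 1571 and 1819 CPM in footprints, against 1498 and 1564 CPM in RNA and an adjusted p of 0.244.

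Among 29 other initiation, elongation and termination factors, 24 were higher and 2 lower, with a median log2 ratio of 1.19 at percentile 83.4; with protein-coding totals alone the median was -0.01 (with totals alone, 13 higher and 8 lower). EIF4A1, the helicase that unwinds 5′ untranslated regions, had 7995 and 8415 CPM in footprints, against 878 and 919 CPM in RNA, a log2 ratio of 3.19 ± 0.11. The gene holds 3 small RNA genes in its span, and their part in the count was not tested. EIF5B, which joins the ribosomal subunits, had 2.62 ± 0.09 and holds none. The lower pair were EIF4EBP2, a repressor of cap binding, with 42.6 and 35.8 CPM in footprints, against 477 and 481 CPM in RNA and a log2 ratio of -3.61 ± 0.11, and EIF4G2, a scaffold of cap-independent initiation, with -0.72 ± 0.09. Aminoacyl-tRNA synthetases, which charge tRNAs, had 18 of 20 higher and 0 lower, with a median of 1.31 (with totals alone, 9 higher and 8 lower). The leucine enzyme LARS1 led them with 2.31 ± 0.10, followed by EPRS1 for glutamate and proline with 2.09 ± 0.11.

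Chaperones of the cytosol, listed with the chaperonin of mitochondria, had the highest median of the 31 lists, 2.55 at percentile 97.4. Of 20 tested, 19 were higher in footprints and 0 lower (with totals alone, 18 higher and 1 lower), and they took 4.48% and 4.51% of coding footprints, against 1.27% and 1.26% of coding RNA counts. HSPD1, the HSP60 chaperonin of mitochondria, had 11068 and 11719 CPM in the footprint libraries, against 721 and 736 CPM in the RNA libraries, a log2 ratio of 3.97 ± 0.11 (SE, adjusted p = 3.9e-07). HSPD1 holds the small RNA gene SNORA105B in its span, whose part in the count was not tested. Its partner HSPE1, transcribed from the same promoter region in the opposite direction, had 3045 and 3891 CPM in footprints, against 233 and 260.4 CPM in RNA, a log2 ratio of 3.81 ± 0.15. Both genes were higher in each footprint library than in either RNA library. HSP90AA1, the inducible HSP90, had a log2 ratio of 3.42 ± 0.11. DNAJB1, a heat-inducible HSP40, was the member that did not pass, with 64.6 and 60.2 CPM in footprints, against 61.1 and 61.4 CPM in RNA and an edgeR adjusted p of 0.786. Without the hosts of small RNA genes, all 14 remaining chaperone genes were higher, with a median of 2.42.

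Proteasome subunits came next, with 29 of 31 higher, 0 lower and a median of 2.07 at percentile 94.96 (with totals alone, 18 higher and 5 lower). PSMC1, an ATPase of the 19S cap, had 1705 and 1620 CPM in the footprint libraries, against 82.9 and 87.9 CPM in the RNA libraries, a log2 ratio of 4.28 ± 0.11, and PSMC6, another of its ATPases, had 3.90 ± 0.12. In PSMC1 both footprint libraries lay well above the RNA libraries. Processed copies held 0.0505% and 0.0172% of the family's counts in footprints, against 8.09% and 7.52% in RNA. PSMA6, of the 20S core, had 3.03 ± 0.11. The members that did not pass were PSMA1 of the core, with 79.6 and 99.3 CPM in footprints, against 99.5 and 106 CPM in RNA, and PSMD3 of the cap, with 136 and 114 CPM in footprints, against 148 and 149.5 CPM in RNA. Both passed as lower (-0.385 and -0.436) with a filter of 1 CPM and 10 counts in every library.

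Genes for the mitochondrion stood at opposite ends of the ranking by the genome that encodes them. Of 54 nuclear genes for respiratory chain subunits, 50 were higher in footprints and 2 lower, with a median log2 ratio of 1.57 at percentile 89.5 (with totals alone, 32 higher and 7 lower). NDUFB3, of complex I, had 245 and 297 CPM in footprints, against 25.5 and 28.9 CPM in RNA, a log2 ratio of 3.32 ± 0.13, and UQCRB, of complex III, had 990.4 and 1050 CPM in footprints, against 125 and 132 CPM in RNA, a log2 ratio of 2.99 ± 0.10. ATP5MG, of the ATP synthase, had 2.78 ± 0.14. The lower ones were NDUFV2, of complex I, with 9.14 and 19.00 CPM in footprints, against 99.8 and 113 CPM in RNA, and COX8A, of complex IV, with 64.1 and 74.9 CPM in footprints, against 107 and 107 CPM in RNA. For NDUFV2 a processed copy held 27.9% and 23.1% of the family's counts in footprints, against 0.257% and 0.219% in RNA. Mitochondrial ribosomal proteins had 46 of 57 higher and 4 lower, with a median of 1.23 (with totals alone, 17 higher and 22 lower). MRPL23 reached 2.69 ± 0.09 and MRPL52 2.31 ± 0.11, while MRPL34 had -1.31 ± 0.11 and MRPS12 -1.04 ± 0.12.

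Of the 13 mRNAs made from mitochondrial DNA and translated by the organelle's own ribosomes, 12 were lower in footprints and 1 higher. Their median log2 ratio was -4.55, at percentile 1.98 (with totals alone, 0 higher and 12 lower), and they took 0.0162% and 0.0193% of coding counts in footprints, against 0.812% and 0.981% in RNA. MT-ND4, of complex I, had 5.11 and 10.5 CPM in the footprint libraries, against 928 and 1122 CPM in the RNA libraries, a log2 ratio of -7.02 ± 0.30 (SE, adjusted p = 1.2e-06). MT-CO3, of complex IV, had 23.1 and 29.5 CPM in footprints, against 1005 and 1204 CPM in RNA, a log2 ratio of -5.39 ± 0.17. The groups stood far apart for both genes. How well the footprint protocol recovers the organelle's ribosomes was not tested, so these ratios may not compare with those of nuclear genes. MT-ND6, the one protein encoded on the other strand of the circle, was the exception with 11.5 and 11.6 CPM in footprints, against 4.81 and 5.69 CPM in RNA and a log2 ratio of 1.14 ± 0.14, which turned to -0.06 with protein-coding totals alone. Without the strand of the reads, its counts and those of the RNA that lies opposite cannot be told apart.

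Genes of glycolysis, cell division and RNA splicing ranked high as well. Of 19 glycolysis genes, 17 were higher in footprints and 1 lower, with a median log2 ratio of 1.22 (with totals alone, 8 higher and 7 lower). LDHA, the dehydrogenase that makes lactate, had 2383 and 3114 CPM in footprints, against 287 and 325 CPM in RNA, a log2 ratio of 3.16 ± 0.15, and GAPDH had 20640 and 17687 CPM in footprints, against 2779 and 2971 CPM in RNA, a log2 ratio of 2.74 ± 0.12. The lower one was SLC2A1, the glucose transporter of the plasma membrane, with 23.5 and 16.9 CPM in footprints, against 40.6 and 37.7 CPM in RNA. Of 40 genes of DNA replication and mitosis, 35 were higher and 4 lower, with a median of 1.23 (with totals alone, 19 higher and 14 lower). CCNB1, the cyclin of mitotic entry, had 999.5 and 1114 CPM in footprints, against 161 and 172 CPM in RNA, a log2 ratio of 2.66 ± 0.11. PCNA, the sliding clamp of DNA polymerase, had 838 and 817 CPM in footprints, against 148 and 139.7 CPM in RNA, a log2 ratio of 2.52 ± 0.10. CDT1, which licenses replication origins, was lower, with 36.3 and 24.6 CPM in footprints, against 84.6 and 84.02 CPM in RNA and a log2 ratio of -1.48 ± 0.16. POLD1, a DNA polymerase, and BIRC5, the survivin of the mitotic spindle, were also lower, at -0.45 and -0.38, and BIRC5 no longer passed without either RNA library (-0.37 and -0.38).

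The listed replication-dependent histones had 25 of 28 members tested higher and 1 lower, with a median of 1.42 (with totals alone, 11 higher and 4 lower). H3C12 had 1419 and 1073 CPM in footprints, against 129 and 117 CPM in RNA, a log2 ratio of 3.34 ± 0.15, and the lower member was H2AC20, with 52.9 and 34.2 CPM in footprints, against 81.03 and 74.8 CPM in RNA. Histone genes within a cluster are near-identical, so their split is uncertain: H3C4, a histone H3 gene of the same class but outside the list, had 0 counts in both footprint libraries, against 35.8 and 35.9 CPM in RNA. Against a floor of 3 counts over both libraries it was at least 311-fold lower in footprints. H2AC7, also of this class and outside the list, had 0.0824 and 0.144 CPM in footprints, against 61.05 and 52.4 CPM in RNA. The count of 1 lower therefore holds for the listed members only. Of 30 splicing factors, 27 were higher and 1 lower, with a median of 1.40 (with totals alone, 14 higher and 11 lower). HNRNPA2B1, which sorts RNAs and binds their introns, had 4349 and 4469 CPM in footprints, against 719 and 672 CPM in RNA, a log2 ratio of 2.66 ± 0.10. The lower one was SRSF2, a serine and arginine-rich factor that regulates its own mRNA, with 223 and 232 CPM in footprints, against 432 and 434 CPM in RNA and a log2 ratio of -0.93 ± 0.09.

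The genes that define the pluripotent state did not rank together. Of 44 tested, 14 were higher in footprints and 27 lower, against 34.1% and 41.1% of all genes. Their median log2 ratio was -0.62 at percentile 39.5 (with totals alone, 3 higher and 36 lower), and they spread from -3.70 to 2.50. L1TD1, an RNA-binding protein of LINE-1 origin, led them with 2739 and 2932 CPM in footprints, against 508 and 495 CPM in RNA and a log2 ratio of 2.50 ± 0.10. POU5F1, the pluripotency factor OCT4, had 2853 and 2197 CPM in the footprint libraries, against 1135 and 1162 CPM in the RNA libraries, a log2 ratio of 1.14 ± 0.14 (SE, adjusted p = 1.1e-04). NANOG had 304 and 305 CPM in footprints, against 199.8 and 211 CPM in RNA, a log2 ratio of 0.57 ± 0.09. Each footprint library was above each RNA library for both factors, but with protein-coding totals alone their ratios turned to -0.06 and -0.64. SOX2, their partner, went the other way, with 123 and 116 CPM in the footprint libraries, against 268 and 271 CPM in the RNA libraries and a log2 ratio of -1.18 ± 0.09 (SE, adjusted p = 7.0e-06). Processed copies of POU5F1 took 0.0218% and 0.0428% of its family's counts in footprints, against 0.0113% and 0.0154% in RNA. Those of NANOG took 47.7% and 52.9% in footprints, against 3.12% and 2.96% in RNA, and with them added its log2 ratio was 1.54. DNMT3B, the de novo DNA methyltransferase, did not pass, with 2048 and 2029 CPM in footprints, against 1781 and 1961 CPM in RNA and an edgeR adjusted p of 0.283.

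LIN28A and TRIM71, which act in the let-7 pathway, had fewer footprints than their RNA share. LIN28A had 671 and 596 CPM in the footprint libraries, against 2373 and 2609 CPM in the RNA libraries, a log2 ratio of -1.97 ± 0.11 (SE, adjusted p = 1.9e-06). TRIM71, a ubiquitin ligase and RNA-binding protein that let-7 represses, had 67.9 and 58.1 CPM in footprints, against 753 and 812 CPM in RNA, a log2 ratio of -3.64 ± 0.12. In both genes the footprint libraries lay below the RNA libraries without overlap. FGF4, a growth factor secreted by pluripotent cells, had 0.741 and 0.506 CPM in footprints, against 7.52 and 8.60 CPM in RNA, a log2 ratio of -3.70 ± 0.25, and KLF4, a factor used in reprogramming, had 0.659 and 1.01 CPM in footprints, against 4.28 and 5.72 CPM in RNA. EPCAM, a surface adhesion molecule of these cells, was higher at 2.01 ± 0.08. Chromatin and DNA methylation regulators had 12 of 29 higher and 12 lower, near the 34.1% and 41.1% of all genes, and a median of -0.07 (with totals alone, 3 higher and 23 lower). The deacetylases HDAC2 and HDAC1 had 2.01 ± 0.11 and 1.66 ± 0.09, and EED, a subunit of the Polycomb complex PRC2, had 1.84 ± 0.08. TET3, which oxidises methylcytosine, had 2.88 and 2.82 CPM in footprints, against 65.00 and 65.2 CPM in RNA, a log2 ratio of -4.51 ± 0.12, and the histone methyltransferase KMT2D had -2.31 ± 0.11.

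**Figure D3:**
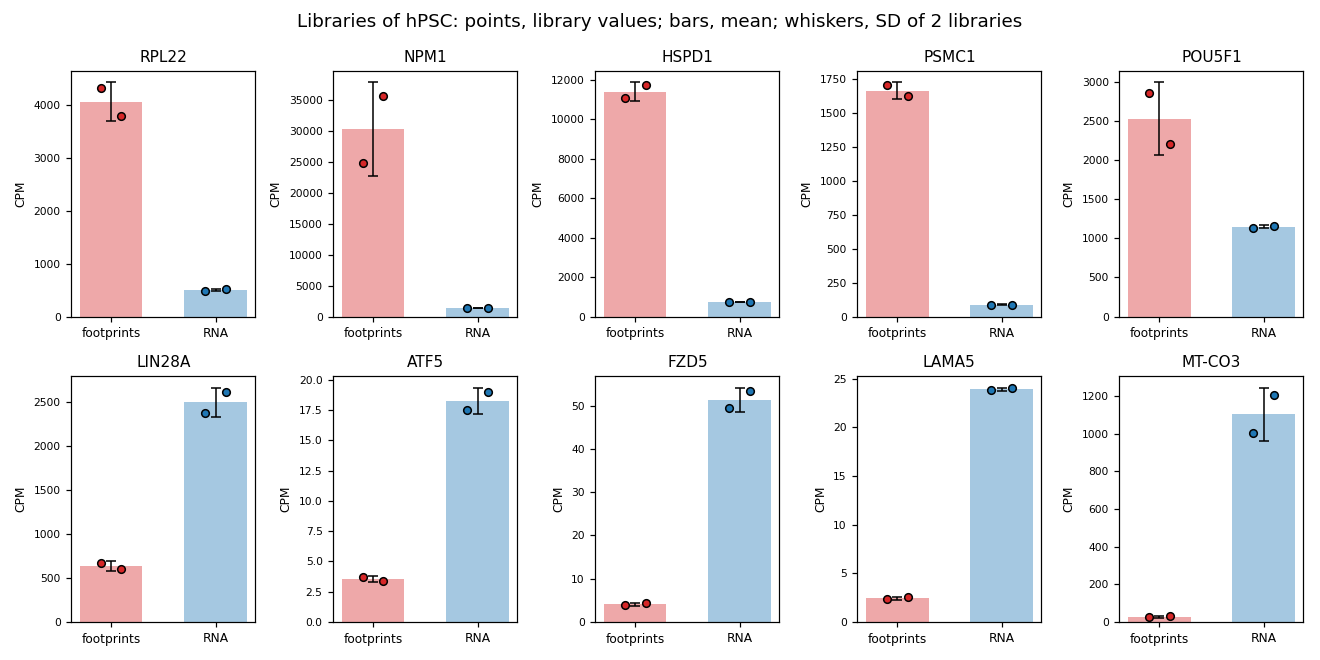
CPM in hPSC of 10 genes in the 2 footprint libraries and the 2 RNA libraries (points), with the mean (bar) and SD (whisker). RPL22, NPM1, HSPD1, PSMC1 and POU5F1 are higher in both footprint libraries than in either RNA library, and LIN28A, ATF5, FZD5, LAMA5 and MT-CO3 lower.

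Genes that carry signals between cells ranked near the bottom. Of 39 genes of TGF-beta, WNT and FGF signalling, 32 were lower in footprints and 2 higher, against 41.1% and 34.1% of all genes. Their median log2 ratio was -1.63 at percentile 18.98 (with totals alone, 1 higher and 36 lower). ACVR2B, a receptor of activin and NODAL, had 7.99 and 7.66 CPM in the footprint libraries, against 179 and 176 CPM in the RNA libraries, a log2 ratio of -4.51 ± 0.11 (SE, adjusted p = 2.4e-07). FZD5, a WNT receptor, had 3.79 and 4.33 CPM in footprints, against 49.5 and 53.4 CPM in RNA, a log2 ratio of -3.66 ± 0.13. Both receptors were lower in each footprint library than in either RNA library. The higher members were CTNNB1, the beta-catenin of WNT signalling, with 1871 and 1993 CPM in footprints, against 429 and 406 CPM in RNA and a log2 ratio of 2.21 ± 0.10, and GDF3, a TGF-beta ligand, with 3.87 and 3.11 CPM in footprints, against 1.77 and 2.03 CPM in RNA, whose ratio of 0.87 turned to -0.33 with protein-coding totals alone and no longer passed without the first RNA library (0.78).

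Matrix and adhesion genes were mostly lower too, with 19 of 28 lower and 3 higher, against 41.1% and 34.1% of all genes. Their median was -0.79 (with totals alone, 1 higher and 27 lower). LAMA5, a laminin chain of the basement membrane, had 2.31 and 2.53 CPM in footprints, against 23.8 and 24.04 CPM in RNA, a log2 ratio of -3.30 ± 0.14, and AGRN, a heparan sulphate proteoglycan, had -2.68 ± 0.19. SPARC, a secreted matrix glycoprotein, was higher, with 71.1 and 64.8 CPM in footprints, against 23.5 and 23.6 CPM in RNA and a log2 ratio of 1.53 ± 0.09. Immediate early genes, transcribed within minutes of a stimulus, had 19 of 27 lower and 2 higher, beside the same shares of all genes. Their median was -1.04 (with totals alone, 0 higher and 25 lower). ZFP36L1 and ZFP36L2, which bring AU-rich mRNAs to decay, had -2.34 ± 0.09 and -2.26 ± 0.10. The higher ones were the kinase SGK1, with 29.2 and 34.7 CPM in footprints, against 14.9 and 17.6 CPM in RNA, and MYC, with 80.8 and 95.2 CPM in footprints, against 51.9 and 59.5 CPM in RNA; with protein-coding totals alone they turned to -0.23 and -0.54.

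HLA class I and peptide loading genes had 8 of 15 higher and 6 lower, beside 34.1% and 41.1% of all genes, and a median of 0.34, which turned to -0.86 with protein-coding totals alone (with totals alone, 1 higher and 9 lower) and to -0.28 without hosts of small RNA genes. HLA-B had 17.2 and 16.98 CPM in footprints, against 6.56 and 6.73 CPM in RNA, a log2 ratio of 1.36 ± 0.11, and B2M, the light chain of class I molecules, had 21.1 and 21.3 CPM in footprints, against 9.63 and 10.2 CPM in RNA, a ratio of 1.09 that turned to -0.11 with those totals. TAPBP, the tapasin of the loading complex, was lower, with 4.20 and 4.05 CPM in footprints, against 11.8 and 13.1 CPM in RNA and a log2 ratio of -1.59 ± 0.14. Reads of the HLA heavy chains may be split among near-identical genes. ER folding genes had 10 of 20 higher and 8 lower, and a median of 0.31 that turned to -0.90 with the same totals (with totals alone, 3 higher and 14 lower) and to -0.22 without hosts. HSPA5, the HSP70 of the ER known as BiP, had 323 and 289 CPM in footprints, against 52.8 and 47.05 CPM in RNA, a log2 ratio of 2.62 ± 0.11. EDEM1, which sends misfolded glycoproteins to degradation, had 1.07 and 1.08 CPM in footprints, against 12.6 and 11.999 CPM in RNA, a log2 ratio of -3.51 ± 0.18. Among 22 genes of cholesterol synthesis and uptake, 9 were higher and 9 lower, near the shares of all genes, with a median of 0.01 that turned to -1.19 under protein-coding totals (with totals alone, 3 higher and 15 lower). The enzymes FDPS and FDFT1 had 2.11 ± 0.09 and 1.76 ± 0.09. INSIG1 and SREBF2, which sense sterols and drive the pathway, had -2.19 ± 0.14 and -2.01 ± 0.09.

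Among mRNAs known for regulated translation, those with upstream reading frames were mostly lower in footprints. Of 17 tested, 14 were lower and 2 higher, against 41.1% and 34.1% of all genes. Their median log2 ratio was -0.73 at percentile 36.8 (with totals alone, 1 higher and 15 lower), below that of all genes. With DESeq2's size factors in edgeR, 11 were lower and 3 higher. Counts per gene do not tell footprints on upstream frames from those on the main reading frame. ATF4, the main transcription factor of the integrated stress response, had 213 and 213 CPM in the footprint libraries, against 287 and 316 CPM in the RNA libraries, a log2 ratio of -0.50 ± 0.09 (SE, adjusted p = 0.00127). ATF5, its relative, had 3.71 and 3.40 CPM in footprints, against 17.5 and 19.05 CPM in RNA, a log2 ratio of -2.37 ± 0.14. The groups did not overlap for either, and the difference was small for ATF4. PPP1R15A and PPP1R15B, the subunits that direct a phosphatase to eIF2, had -1.52 ± 0.13 and -1.76 ± 0.11. CEBPA, a factor of myeloid and fat cells, had 0.576 and 0.289 CPM in footprints, against 2.45 and 2.33 CPM in RNA. The higher ones were EIF5, whose product sets start codon choice, with 1431 and 1982 CPM in footprints, against 271 and 275 CPM in RNA and a log2 ratio of 2.64 ± 0.16, and UCP2, a mitochondrial carrier, whose ratio of 1.16 turned to -0.04 with protein-coding totals alone. EIF5 holds a small nucleolar RNA gene in its span.

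Genes of polyamine synthesis had 3 of 12 higher and 5 lower, near the 34.1% and 41.1% of all genes, and a median of -0.45 (with totals alone, 0 higher and 10 lower). OAZ1, the antizyme whose reading needs a frameshift that polyamines favour, had 89.9 and 72.6 CPM in the footprint libraries, against 319 and 325 CPM in the RNA libraries, a log2 ratio of -1.99 ± 0.12 (SE, adjusted p = 2.3e-06). ODC1, the decarboxylase that antizyme sends to the proteasome, had 139.7 and 140.0 CPM in footprints, against 194 and 190.1 CPM in RNA, a log2 ratio of -0.46 ± 0.08. AMD1, which makes the aminopropyl donor, had 142 and 201 CPM in footprints, against 261 and 277 CPM in RNA, a log2 ratio of -0.65 ± 0.15. All 3 were lower in both footprint libraries than in either RNA library, beside 88.3% of all genes tested without overlap in either direction. SMS and DHPS, which make spermine and deoxyhypusine, were higher at 1.31 ± 0.16 and 1.49 ± 0.11. Of 9 mRNAs with an iron-responsive element, 6 were lower and 0 higher, against 41.1% and 34.1% of all genes. Their median was -0.43 (with totals alone, 0 higher and 9 lower). The ferritin heavy chain FTH1, with the element in the 5′ untranslated region, had 524 and 449.7 CPM in footprints, against 706 and 738 CPM in RNA, a log2 ratio of -0.57 ± 0.11. The light chain FTL, with the element in the same place, had 320.4 and 411 CPM in footprints, against 738 and 805 CPM in RNA, a log2 ratio of -1.08 ± 0.13. With processed copies added, FTH1 no longer passed, at -0.12. The transferrin receptor TFRC, with the element in the 3′ untranslated region, did not pass, with 36.6 and 42.8 CPM in footprints, against 34.2 and 36.3 CPM in RNA and an edgeR adjusted p of 0.154. Of 20 selenoproteins, which decode UGA as selenocysteine, 5 were higher and 8 lower, near the shares of all genes, with a median of -0.29 (with totals alone, 1 higher and 18 lower). SELENON, of the ER, had 6.18 and 4.19 CPM in footprints, against 56.8 and 55.1 CPM in RNA, a log2 ratio of -3.45 ± 0.15, SELENOK had 1.89 ± 0.12, and GPX4, which protects membrane lipids from oxidation, had -0.30 ± 0.11, which no longer passed without either RNA library (-0.33 and -0.27) or with DESeq2's size factors (-0.18). The 434 zinc finger genes named ZNF had 168 higher and 151 lower, beside 34.1% and 41.1% of all genes. Their median of 0.04 turned to -1.16 with protein-coding totals alone. With totals alone 29 were higher and 324 lower, beside 1605 and 10907 of all 14686 genes.

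Of the lineage lists used as a check of the cells, those of mesoderm and islet cells held few genes with enough counts. Beside 34.1% higher and 41.1% lower over all genes, of 19 definitive endoderm genes tested 0 were higher in footprints and 4 lower, of 9 ectoderm genes 2 and 3, and of 4 mesoderm genes 0 and 2. Of the endoderm genes tested 15 were not called, and only 6 of the 20 listed had at least 1 CPM in every library. Islet genes had 0 of 5 higher and 4 lower, and endothelial, blood and fibroblast genes had 3 of 8 higher and 2 lower.

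Several of the highest ratios belonged to genes that are copies of another gene. How far their footprint counts belong to the parent gene was not tested. SETSIP, an intronless copy of SET, had 759 and 553 CPM in footprints, against 0.0273 and 0.00875 CPM in RNA. EIF2S3B, an intronless copy of the initiation factor gene EIF2S3, had 613 and 732 CPM in footprints, against 0.0364 and 0.0437 CPM in RNA. RAMACL, a copy of RAMAC, had 72.1 and 97.8 CPM in footprints, against 0 and 0 CPM in RNA, at least 6416-fold higher in footprints against a floor of 3 counts over both RNA libraries. TMC5, a gene of a channel-like membrane protein, had 13456 and 18767 CPM in the footprint libraries, against 2.57 and 2.89 CPM in the RNA libraries, and took 0.912% and 1.20% of coding footprints. Its span holds RNU4-46P, a copy of the U4 small nuclear RNA, whose part in the count was not tested. Among the 10 lowest genes called without overlap at a mean log2 CPM of at least 3, ADCY1, an adenylate cyclase, had 0.247 and 0.433 CPM in footprints, against 36.7 and 36.5 CPM in RNA, and IDS, a lysosomal sulphatase, had 0.0824 and 0.361 CPM in footprints, against 22.7 and 20.1 CPM in RNA. CLN8, a membrane protein of the ER, had 2.72 and 3.03 CPM in footprints, against 115 and 139 CPM in RNA, and RFLNB, a partner of filamin, had 0.906 and 1.01 CPM in footprints, against 64.9 and 71.4 CPM in RNA. LRRK1, a kinase named for its share of RNA, held 0.00839% and 0.00999% of coding counts in footprints, against 0.837% and 0.986% in RNA, a log2 ratio of -5.43 ± 0.17.

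FLAG footprints and total footprints of hPSC were each set against the same RNA libraries, so their values are given side by side only. In FLAG footprints against RNA, 10471 of 14664 genes (71.4%) differed, 4753 (32.4%) higher and 5718 (39.0%) lower. The median member of the chaperones stood at percentile 97.4 in total footprints and 97.7 in FLAG footprints, that of the proteasome at 94.96 and 95.4, and that of cytosolic ribosomal proteins at 92.0 and 89.8. For the mitochondrially encoded mRNAs it stood at 1.98 and 0.795, and for signalling genes at 19.0 and 20.4. The median log2 ratios of the mitochondrially encoded list were -4.55 in total footprints and -7.90 in FLAG footprints. Among single genes, RPL22 had log2 ratios of 3.02 and 2.45, FTL -1.08 and -3.12, NANOG 0.57 and -0.35, and MT-ND6 1.14 and -2.24.

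Whether the ratios of hPSC differ from those of another stage was tested against DE, whose libraries are separate. In DE, 9151 of 14544 genes (62.9%) differed between footprints and RNA, 4374 (30.1%) higher and 4777 (32.8%) lower; without the first or the second RNA library of DE 5532 and 5576 did. The median percentiles in hPSC and DE were 97.4 and 95.8 for chaperones, 94.96 and 93.7 for the proteasome, 92.0 and 83.4 for cytosolic ribosomal proteins, 39.5 and 46.9 for pluripotency genes and 1.98 and 1.47 for mitochondrially encoded mRNAs. The difference of the log2 ratios, hPSC minus DE, passed an adjusted p of 0.05 in 172 of 15331 genes (1.12%), 31 higher (0.202%) and 141 lower in hPSC (0.920%). That count was 35 and 0 without the first or second footprint library of hPSC, 2 and 1 without the first or second RNA library of hPSC, and 1 without either RNA library of DE. It was 694 and 3166 without the first or second footprint library of DE. The first DE footprint library had only 40.6% of its counts on protein-coding genes, and no call on the difference is firm. Of the lists, cytosolic ribosomal proteins had 1 of 80 members higher in hPSC and 0 lower, pluripotency genes 0 of 44 and 1, and signalling genes 0 of 39 and 0. Among the genes named above, ATF4 had log2 ratios of -0.50 in hPSC and 0.30 in DE, a difference of -0.88 ± 0.15 (SE, adjusted p = 0.0428). For SOX2 the ratios were -1.18 and 0.06, a difference of -1.25 ± 0.80 (SE, adjusted p = 0.461) that did not pass.

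**Figure D4:**
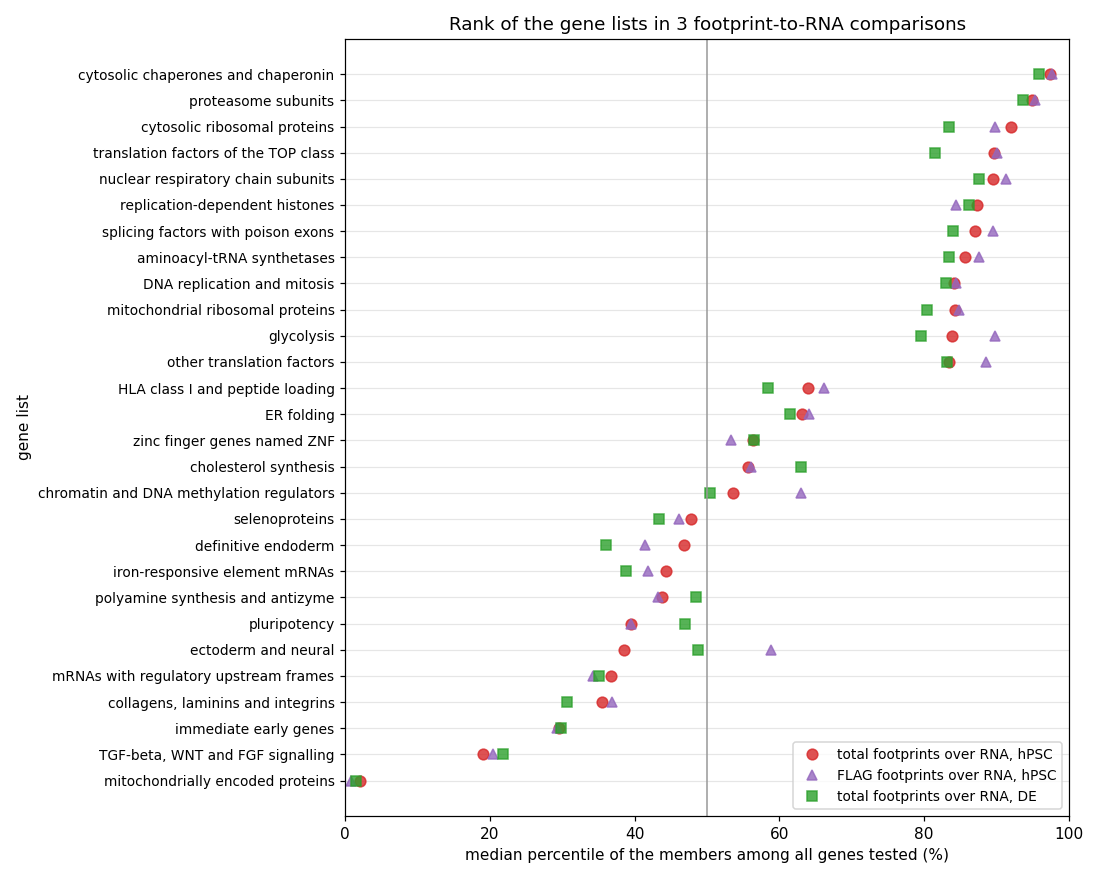
Median percentile of the members of each list among all genes tested (horizontal, %), for total footprints over RNA in hPSC, FLAG footprints over RNA in hPSC and total footprints over RNA in DE. Chaperones and proteasome subunits stand above 90 and mitochondrially encoded mRNAs under 5 in each; the first pair of comparisons shares its RNA libraries.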

How the data were processed

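The deposited table lists estimated counts for 57808 genes across 18 libraries. The submitters' processing notes name Salmon, DESeq2, UMI-tools, cutadapt, Bowtie and GRCh38, without versions or roles; the annotation release is not given in the sources used here. The deposited estimated counts were rounded to whole numbers. Identifiers were matched to reference tables (57030, or 98.7%), and protein-coding genes taken by symbol (19032), older symbol (151) or as mitochondrially encoded (13). Coordinates and start sequences come from RefSeq GRCh38.p14.

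Tests on protein-coding genes used edgeR 4.0.16 under R 4.3.3 (genes kept by filterByExpr, TMM, robust quasi-likelihood F test, Benjamini-Hochberg over all genes tested, threshold 0.05) on the 4 libraries of the 2 groups, or 8 for the difference between stages. In all, 4 comparisons were made. SE is that of the log2 ratio and SD that of 2 libraries. On simulated counts for 14438 genes of hPSC footprints against RNA, 97.1% of 103 genes changed by a log2 of 1 were recovered. Of 97 genes changed by 2, 100% were recovered, and 8 unchanged genes were called. The simulation left all other genes unchanged and used a fixed spread, while 75.1% of genes were called in the data. It therefore checks the code and does not measure recovery in this comparison. Replicates differed by more than sampling noise (chi-square per gene 27.9 in footprints, 13.2 in RNA). Python 3.11.15, pandas 2.3.3, numpy 2.4.6 and matplotlib 3.10.9 made lists and figures.

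The 31 gene lists and the genes compared were chosen with earlier results of these data known. The text names part of the genes a rule takes: the 10 largest called ratios per direction whose mean log2 CPM reached 3 and whose groups did not overlap, 3 per direction and 2 not called per list, the 5 largest shares in each assay, and a fixed set. Alternatives were DESeq2 1.42.0 (size factors, Wald test), totals without TMM, other filters, a replicate block, a shared spread, nuclear genes only, a test against a log2 of 1 (glmTreat) and each library left out. Added after seeing the data were 7101 pseudogenes and 74 readthrough genes summed into their parents, and the removal of 2581 genes whose span holds a small RNA gene. Floors of 3 counts cover counting error only.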

Additional observations from a re-analysis of the deposited data

Results flagged for a closer look

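The log2 ratio of footprints over RNA differed between hPSC and DE in 172 of 15331 genes in edgeR's test of the interaction of assay and stage. That count changed strongly when single libraries were left out, and no call on the difference is firm, including those below. Among the genes that the naming rule took, MT-ND3, of complex I, had a ratio of -0.83 in hPSC and -3.19 in DE, a difference (hPSC minus DE) of 2.27 ± 0.36 (SE, adjusted p = 0.0392). Without the first footprint library of hPSC, the hPSC ratio of MT-ND3 was -0.56. ATF4 had -0.50 and 0.30, a difference of -0.88 ± 0.15 (SE, adjusted p = 0.0428). ZFP36L1 had -2.34 and -1.55, a difference of -0.88 ± 0.13 (SE, adjusted p = 0.0316). CLN8 had -5.46 and -1.85, a difference of -3.68 ± 0.31 (SE, adjusted p = 0.00678). TMC5, whose span holds a copy of the U4 small nuclear RNA, had 12.53 and 16.47, a difference of -4.03 ± 0.37 (SE, adjusted p = 0.00875). The 2 DE footprint libraries differed from each other more than those of hPSC: the median absolute log2 difference between replicates was 0.185 in hPSC footprints and 0.583 in DE footprints. The part of this spread in the differences was not tested. Groups of 2 libraries are too small for a search for single libraries far from the rest.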

How the results depend on the processing

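The number of genes past the threshold between footprints and RNA in hPSC, 11036, stayed within 1.5 times of that value with DESeq2's size factors, DESeq2's Wald test, no filter, a stricter filter, all genes of the table, nuclear genes only, copies added and hosts of small RNA genes removed. Tested beyond a log2 ratio of 1 it was 5377, 2279 higher and 3098 lower, fewer by construction. With protein-coding totals and no TMM 1605 were higher and 10907 lower. That scaling turned EEF2 (-0.96), PABPC1 (-1.06), DNAJB1 (-1.18), MT-ND6 (-0.0627), UCP2 (-0.0402), TFRC (-1.03), POU5F1 (-0.0605), NANOG (-0.64), DNMT3B (-1.08), GDF3 (-0.33), SGK1 (-0.23), MYC (-0.54) and B2M (-0.11); it put the median of all genes at -1.41, against -0.21. Adding copies turned RPL36A (2.84) and RPL41 (0.15). Genes near the threshold changed sides: EEF2 passed with DESeq2's size factors (0.37), and NANOG no longer did when 12 libraries shared 1 estimate of spread (0.45).

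Leaving out each library in turn gave 9236 to 11187 genes in hPSC (4276 to 5144 higher, 4960 to 6043 lower). FLAG footprints gave 8351 to 11229 (3875 to 5130 higher, 4476 to 6220 lower). DE gave 5532 to 10869 (2733 to 5169 higher, 2799 to 5700 lower). The difference between stages gave 0 to 3166 (0 to 2220 higher, 0 to 946 lower); it was 83, with 48 lower, under DESeq2's size factors.

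Equal replicate numbers were not taken as pairs: in hPSC the replicate difference of footprints and RNA correlated at 0.264 over genes, but there are only 2 pairs. With the replicate number as a block, 11128 genes passed in hPSC, 5027 higher and 6101 lower, and 36 in the difference between stages, 9 higher and 27 lower. The block changed the call of PSMD3 (-0.25, now past the threshold) among the hPSC genes named.

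Depth limits low genes: 202 genes tested had 0 counts in both footprint libraries and 16 in both RNA libraries.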

Other observations

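The ratio moved with the RNA level. When the genes tested were split by RNA level into 10 equal groups, the median log2 ratio was -0.35 in the group with the least RNA, with a median of 0.292 CPM in RNA. It was -0.70 in the next group and rose through each further group to 0.63 in the one with the most RNA, with a median of 155 CPM. This split shares the RNA values with the ratio itself. All 80 ribosomal protein genes tested lay in that last group, and their median ratio of 1.78 stood above its median.

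Long noncoding RNAs also held footprint counts. With a pseudocount of 0.1 CPM, the median log2 ratio was -0.69 over 527 long noncoding RNAs with at least 1 CPM in RNA, and -0.16 over 12566 protein-coding genes by the same measure. ESRG, a noncoding RNA of pluripotent cells, had 326 and 348 CPM in footprints, against 3678 and 4407 CPM in RNA. MALAT1, which stays in the nucleus, had 70.0 and 65.8 CPM in footprints, against 370 and 375 CPM in RNA. GAS5 and SNHG1, hosts of small nucleolar RNAs, went the other way: GAS5 had 1835 and 3129 CPM in footprints, against 132 and 152 CPM in RNA, and SNHG1 had 9152 and 14077 CPM in footprints, against 89.5 and 103 CPM in RNA. These 4 were named after their values were seen. Among protein-coding genes tested, the 477 that hold a small nucleolar RNA had a median log2 ratio of 0.20, the 32 that hold a small nuclear RNA 0.32, the 26 that hold a tRNA -0.24 and the 964 that hold a miRNA -0.46. All 2338 hosts of such genes had -0.18, and the 12348 that hold none had -0.21. Fragments of small RNAs and footprints cannot be told apart in counts per gene.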
